A study of Mus musculus with 12 samples.

Results

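The interleukins and their receptors were examined in lungs of newborn mice that lacked Sphk1, the gene of sphingosine kinase 1, or carried it, after hyperoxia or room air. Members were the genes whose platform symbol is Il followed by a digit, each represented by the transcript with the highest mean, which gave 78 of 22180 named genes. Of these, 38 were ligands and 38 were receptor chains, coreceptors or binding proteins. The others were Il1rn, the IL-1 receptor antagonist, and Il1bos, a non-coding RNA antisense to Il1b.

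The study had 4 groups of 3 mice, with 1 Affymetrix array for each lung. Wild type pups in hyperoxia (WT HO) received 75% oxygen for 7 days from postnatal day 1, and wild type pups in room air (WT RA) were kept for the same time. Sphk1-/- pups were treated in the same way (SK HO and SK RA). The knockout was constitutive and not limited to a cell type, and the mice were hybrids after a short backcross to C57BL/6, with controls of the same mixed background. RNA came from the superior lobe of the right lung, so that all cell types of the lobe contributed. Pups were kept in litters of limited size with lactating dams, which were alternated daily between hyperoxia and room air. The litter of each pup was not given in the labels.

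Interleukins are secreted proteins through which immune, epithelial and stromal cells signal to each other. Each binds a receptor built from a specific chain and, often, a chain shared by a family, such as gp130 for IL-6 and IL-11 or the IL-2 receptor beta chain for IL-2 and IL-15. The IL-1 family signals through MyD88 and NF-kB, and most other families through Janus kinases and STAT proteins. In the injured lung, IL-1 and IL-6 cytokines are known for their part in recruiting and activating leukocytes.

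All values are log2 expression, on which a difference of 1 is a doubling. Array medians lay between 4.76 and 4.99, and the arrays SK RA 1 and SK HO 1 correlated least with their groups (median r = 0.963 and 0.964, against 0.969 to 0.981 for the others). A background level was set on each array by the 95th percentile of 1405 olfactory and vomeronasal receptor transcripts, and ran from 4.57 to 4.93. Markers of type 1 and type 2 alveolar cells, endothelium and fibroblasts were above it. The Sphk1 transcript read 5.59 to 5.84 in SK RA and 4.90 to 5.40 in WT RA lungs (difference 0.51, adjusted p = 0.386). Under hyperoxia it read 5.57 to 6.28 in SK HO and 6.79 to 7.50 in WT HO lungs (difference -1.26, limma adjusted p = 0.0082). Sphk1 rose by 1.89 with hyperoxia in wild type mice (limma adjusted p = 0.0003), against a difference of 0.11 in Sphk1-/- mice (limma adjusted p = 0.897). The place of its probes relative to the deleted part is not known here, so it did not check the labels. The mean of 3 Y-linked genes was high on 4 arrays (0 WT HO, 1 WT RA, 2 SK HO and 1 SK RA) and low on 8, although the methods describe male pups.

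Of the 78 genes, 30 were above background on all 12 arrays, 21 on some and 27 on none. Receptors were detected more often than ligands. On all 12 arrays, 21 of the 38 receptor chains were above background, but 8 of the 38 ligands, and 17 ligands were above it on none. The ligands above background on no array included the T cell cytokines Il2, Il4, Il5, Il17a, Il21 and Il22. Il6st, the gp130 chain, had values of 9.83 to 10.78 over the 12 arrays.

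Hyperoxia in wild type pups was followed by higher expression of many interleukin genes. A gene was called changed at an adjusted p under 0.05 in limma, with adjustment over all transcripts. In WT HO against WT RA, 20 of the 78 genes were called, 18 higher and 2 lower (25.6%), where 14.9% of all transcripts and 21.6% of named genes were called. Of all transcripts, 8.58% were called higher and 6.35% lower. Another 11 of the 78 genes had an unadjusted p under 0.05 without being called. The median difference was 0.23, against 0.01 over all transcripts, and 58 genes had a positive difference. The groups did not overlap for 42 genes (53.8%, against 34.3% of all transcripts). Ligands and receptors were both among those that rose, with 7 of 38 ligands and 11 of 38 receptor chains. In whole lung, fewer cells of a type and less RNA per cell cannot be told apart.

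In Sphk1-/- pups, hyperoxia was followed by few calls among the same genes. In SK HO against SK RA, 4 of 78 genes were called, 1 higher and 3 lower (5.13%, against 2.34% of all transcripts, 1.02% higher and 1.32% lower, and 3.58% of named genes). The median difference was -0.02, and 19 genes had an unadjusted p under 0.05. None of these 4 calls stayed under every alternative setting, and leaving out 1 array at a time left 0 to 3 calls. Without SK RA replicate 2 there was none, and without SK RA replicate 3 or SK HO replicate 2 there was 1. For WT HO against WT RA, 12 to 17 calls were left, with 12 without WT RA replicate 1 and 13 without WT HO replicate 3.

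The difference between the oxygen responses was tested as the interaction, (SK HO minus SK RA) minus (WT HO minus WT RA). Of the 78, 6 genes were called (7.69%, against 4.79% of all transcripts and 6.98% of named genes), and all 6 were negative, where 2.6% of all transcripts were called negative and 2.19% positive. They were the ligands Il18 and Il34 and the receptor chains Il7r, Il6st, Il2rb and Il27ra. The median interaction was -0.16 over the 78 genes and -0.03 over all transcripts. Without WT RA replicate 1 there were 4 calls, and without SK HO replicate 2 there were 10.

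**Figure D1:**
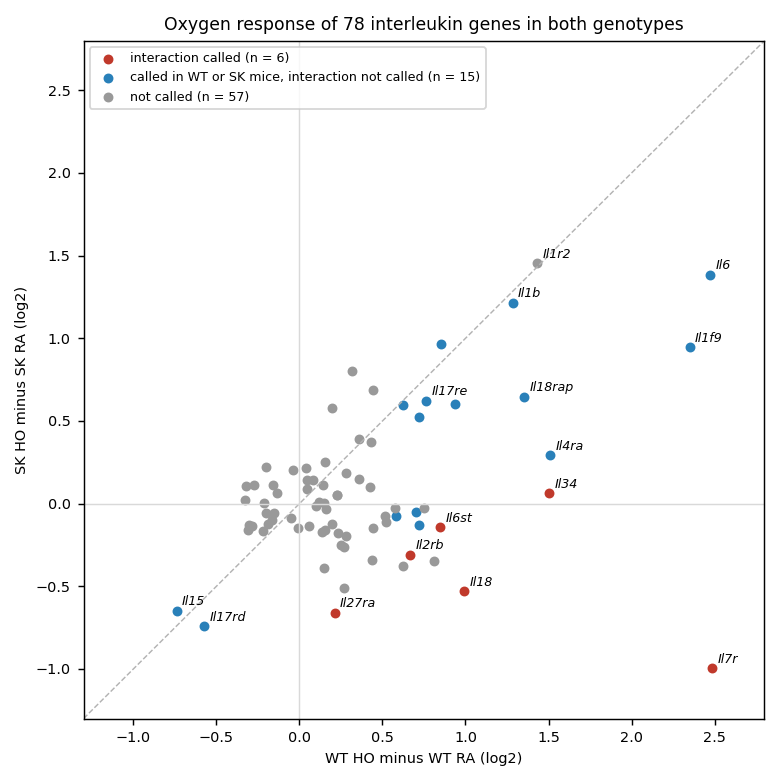
Difference of HO and RA group means for the 78 interleukin genes, in wild type mice (x axis, log2) and Sphk1-/- mice (y axis, log2), with equal responses on the dashed line. Red points mark the 6 genes with a called interaction, which lie below the line, with Il7r at 2.49 in wild type and -1.0 in Sphk1-/- mice.

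Il7r, the IL-7 receptor alpha chain, needed by developing lymphocytes and also part of the TSLP receptor, had opposite responses in the genotypes. Its values were 6.63, 6.80 and 6.24 in WT HO and 4.10, 4.10 and 4.01 in WT RA lungs. In Sphk1-/- lungs they were 4.39, 5.23 and 5.10 in SK HO and 5.93, 5.84 and 5.94 in SK RA. All WT HO values were thus above all WT RA values, and all SK HO values were below all SK RA values. The WT RA values and SK HO 1 were under background. Il7r rose by 2.49 ± 0.21 (SE) with hyperoxia in wild type mice (adjusted p = 2.12e-05) and had a difference of -1.0 ± 0.21 in Sphk1-/- mice (adjusted p = 0.034). The interaction was -3.48 ± 0.30 (adjusted p = 7.38e-05), and its 95% interval ran from -4.14 to -2.83. This interaction and the wild type response were called under every alternative setting and with any 1 array left out. The call in Sphk1-/- mice was kept on leaving out SK HO replicate 2 but lost on leaving out any of the other 5 arrays of SK HO and SK RA.

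Between genotypes, Il7r differed in both directions. In room air it was higher in SK RA than in WT RA lungs, with a difference of 1.83 ± 0.21 (adjusted p = 0.00215), and it was the one gene of the 78 called in that comparison (1.28%, against 1.15% of all transcripts, 0.556% higher and 0.59% lower). Under hyperoxia it was lower in SK HO than in WT HO lungs, with a difference of -1.65 ± 0.21 (adjusted p = 0.000995). Both calls were kept under all alternative settings and with any 1 array left out. B cell markers moved with Il7r in their mean, but not each of them did. The mean of 5 of 6 listed markers was 5.96 to 6.20 in WT HO and 5.26 to 5.67 in WT RA lungs, and 5.50 to 5.80 in SK HO and 6.18 to 6.57 in SK RA lungs, with 4 of the 5 above background on all arrays. Of these, 3 had a called negative interaction, among them Cd79a, the Ig-alpha signalling chain (-2.17, adjusted p = 0.000904). In wild type mice Cd79a and Cd79b were called higher, while Pax5 went the other way without being called (0.89-fold). In SK HO against WT HO, Cd79a alone of these markers was called, and Ms4a1 was nearly equal (0.97-fold). The mean of 5 of 7 T cell markers was 5.38 to 5.56 in WT HO, 5.22 to 5.50 in WT RA, 4.96 to 5.16 in SK HO and 5.67 to 5.98 in SK RA lungs, with 2 of the 5 above background on all arrays. Single markers of other cell types had interactions of the same sign, among them Pdgfra of fibroblasts (-3.46, adjusted p = 0.00106) and Cidec of adipocytes (-3.52, adjusted p = 0.00168). The fibroblast list was split. Of its 5 markers, 2 were called negative (Pdgfra and Dcn) and 2 positive (Col1a1 and Col1a2), with a median interaction of 1.03. Cidec was the 1 marker called of 5 for adipocytes. The part of these cells in the Il7r result was not tested.

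Promoter windows were taken from RefSeq (GRCm38.p6) and found for 61 of the 78 genes, each as 250 bases before the start. The windows of Il7r and Il6, both called higher in WT HO lungs and under background in WT RA lungs, are shown with matches to 4 motifs in capitals. The windows of Il7r and Il6 lie at chr15:9529877-9530126 (minus strand) and chr5:30012864-30013113 (plus strand).
Il7r: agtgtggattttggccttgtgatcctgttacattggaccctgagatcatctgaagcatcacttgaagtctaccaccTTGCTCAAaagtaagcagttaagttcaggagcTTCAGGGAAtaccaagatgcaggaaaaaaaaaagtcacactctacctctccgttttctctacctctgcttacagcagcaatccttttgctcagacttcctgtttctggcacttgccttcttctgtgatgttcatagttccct
Il6: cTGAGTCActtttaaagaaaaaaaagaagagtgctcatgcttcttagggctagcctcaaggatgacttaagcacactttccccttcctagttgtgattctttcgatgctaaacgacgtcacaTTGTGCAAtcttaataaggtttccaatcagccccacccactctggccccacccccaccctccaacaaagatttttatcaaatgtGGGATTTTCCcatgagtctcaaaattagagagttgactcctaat
The motifs were searched on both strands, allowing overlaps, as GGG, any 2 bases and TTTCC for NF-kB, TGANTCA for AP-1, TTGCNNAA for C/EBP and TTCNNNGAA for STAT proteins. The Il6 window held an AP-1 match at -249 to -243, a C/EBP match at -128 to -121 and an NF-kB match at -44 to -35 from the start. The Il7r window held a C/EBP match at -174 to -167 and a STAT match at -142 to -134.

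Over all windows, 1.41% of 32851 held the NF-kB motif, 6.75% the AP-1 motif, 9.56% the C/EBP motif and 7.02% the STAT motif. Of the 61 windows of interleukin genes, 6 held the NF-kB, 14 the AP-1, 13 the C/EBP and 9 the STAT motif. Among the 15 windows of genes called higher in WT HO, Il6 and Il17rc had an NF-kB match, Il6 and Il1a an AP-1 match, and Il6 and Il7r a C/EBP match. A STAT match was found in 4 of them, Il7r, Il12rb2, Il18r1 and Il1f9. A match of letters does not show binding. The windows of Il18 and Il6st, both with a called interaction, held none of these 4 motifs.

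**Figure D2:**
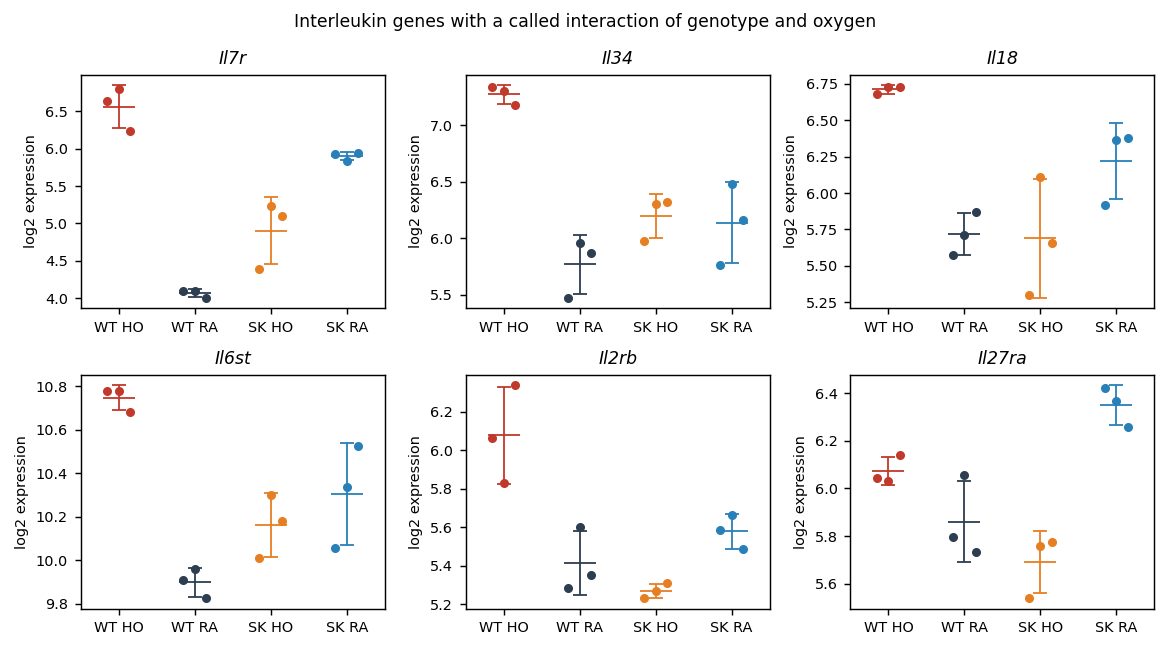
Log2 expression (y axis) of the 6 genes with a called interaction, by group (x axis), with 1 point for each mouse and bars for the mean and SD of 3 mice. In 5 of the 6 panels all WT HO points lie above all WT RA points, and in Il7r, Il2rb and Il27ra all SK HO points lie below all SK RA points.

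Among ligands, Il34, which signals through the CSF-1 receptor on macrophages and their progenitors, read 7.34, 7.30 and 7.18 in WT HO and 5.47, 5.96 and 5.87 in WT RA lungs. It read 5.97, 6.30 and 6.32 in SK HO and 5.77, 6.48 and 6.16 in SK RA lungs. The wild type groups did not overlap and the Sphk1-/- groups did. Il34 rose by 1.51 ± 0.19 in wild type mice (2.84-fold, adjusted p = 0.00037), and the difference in Sphk1-/- mice was 0.06 (adjusted p = 0.938). The interaction was -1.44 ± 0.28 (adjusted p = 0.0118), and Il34 was lower in SK HO than in WT HO lungs (-1.07 ± 0.19, adjusted p = 0.00783). These 3 calls held with any 1 array left out and under all alternative settings.

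Il18, an IL-1 family cytokine that induces interferon gamma, read 6.68, 6.73 and 6.73 in WT HO and 5.58, 5.71 and 5.87 in WT RA lungs. In Sphk1-/- lungs it read 5.30, 6.11 and 5.66 in SK HO and 5.92, 6.37 and 6.38 in SK RA. Il18 was thus close to uniform in WT HO mice, above every other array. It rose by 0.99 ± 0.20 in wild type mice (adjusted p = 0.00596), against -0.53 ± 0.20 in Sphk1-/- mice (adjusted p = 0.236). The interaction was -1.53 ± 0.28 (adjusted p = 0.0102) and was called under every setting. Il18 was lower in SK HO than in WT HO lungs (-1.02 ± 0.20, adjusted p = 0.012), a call lost when those groups were fitted alone (adjusted p = 0.057). Il18bp, the secreted inhibitor of IL-18, averaged 6.34 in WT HO and 5.53 in WT RA lungs without passing the test (adjusted p = 0.1).

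Il6st, the signalling chain gp130 of the IL-6 family, read 10.78, 10.78 and 10.68 in WT HO and 9.91, 9.96 and 9.83 in WT RA lungs. It read 10.01, 10.30 and 10.18 in SK HO and 10.05, 10.34 and 10.52 in SK RA lungs, where the groups overlapped. Il6st rose by 0.85 ± 0.14 in wild type mice (adjusted p = 0.00179), with a difference of -0.14 in Sphk1-/- mice (adjusted p = 0.749). The interaction of -0.99 ± 0.20 (adjusted p = 0.015) held with any 1 array left out and was lost when arrays were centred on their medians (adjusted p = 0.053). In SK HO against WT HO, Il6st was lower (-0.58 ± 0.14, adjusted p = 0.0331), a call kept on leaving out SK HO replicate 2 but lost on leaving out any of the other 5 arrays compared.

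Il2rb, the beta chain of the IL-2 and IL-15 receptors on natural killer (NK) and T cells, read 6.06, 5.83 and 6.34 in WT HO and 5.28, 5.60 and 5.35 in WT RA lungs. The values were 5.23, 5.27 and 5.31 in SK HO and 5.58, 5.67 and 5.48 in SK RA lungs. WT HO mice were above all others, and SK HO mice were below all SK RA mice. Il2rb rose in wild type mice (0.67 ± 0.15, adjusted p = 0.00998) and the difference in Sphk1-/- mice was -0.31 (adjusted p = 0.384). The interaction was -0.97 ± 0.21 (adjusted p = 0.021). It was lost on leaving out WT RA replicate 1, WT RA replicate 3, SK RA replicate 2 or WT HO replicate 1 (adjusted p up to 0.0589). Il2rb was lower in SK HO than in WT HO lungs (-0.81 ± 0.15, adjusted p = 0.00794), but not when those groups were fitted alone (adjusted p = 0.052). The mean of 6 NK cell markers was 4.69 to 5.08 in WT HO, 3.87 to 4.32 in WT RA, 3.93 to 4.16 in SK HO and 4.17 to 4.30 in SK RA lungs, with 1 marker above background on all arrays. Of these markers, Ncr1, Klrk1 and Gzma rose in wild type mice, and none was called in Sphk1-/- mice. The interaction was called for Gzma alone (-2.46), and that of Klrb1c was positive (0.04). Klrb1c and Eomes were above background on no array. The part of NK cells in the Il2rb result was not tested.

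Il27ra, the specific chain of the IL-27 receptor, read 6.05, 6.03 and 6.14 in WT HO and 5.79, 6.05 and 5.73 in WT RA lungs, which overlapped. It read 5.54, 5.76 and 5.77 in SK HO and 6.42, 6.37 and 6.26 in SK RA lungs, which did not. Its interaction (-0.87 ± 0.18, adjusted p = 0.0179) combined a wild type difference that did not pass the test (0.21 ± 0.13, adjusted p = 0.332) with a fall in Sphk1-/- mice (-0.66 ± 0.13, adjusted p = 0.0222). The interaction was lost without WT RA replicate 1 (adjusted p = 0.0517). The fall in Sphk1-/- mice was kept on leaving out SK HO replicate 3 and lost on leaving out any of the other 5 arrays compared. T cell markers, given above, also had lower means in SK HO than in SK RA lungs, and 3 of 5 fell. Their part was not tested.

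Il6, the main acute-phase cytokine, stood at background in room air. Il6 read 5.67, 4.83 and 5.92 in WT HO and 3.10, 3.00 and 2.89 in WT RA lungs. In Sphk1-/- mice it read 3.56, 5.22 and 4.21 in SK HO and 2.63, 3.33 and 2.88 in SK RA lungs. The HO mice were above the RA mice in both genotypes, but values over background were seen on 4 arrays, the 3 WT HO arrays and SK HO 2. Il6 rose by 2.48 ± 0.38 in wild type mice (adjusted p = 0.00121). The difference in Sphk1-/- mice was 1.38 ± 0.38 (adjusted p = 0.0961), and the interaction was not called (-1.09, 95% interval -2.28 to 0.10, adjusted p = 0.347). Il6ra, the IL-6 receptor alpha chain, averaged 8.50 in WT HO and 7.78 in WT RA lungs and rose (0.72, adjusted p = 0.034). This call was kept on leaving out WT RA replicate 3 and lost on leaving out any of the other 5 arrays compared.

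Relatives of IL-6 outside the symbol rule were followed in a list of related cytokines and shared chains, of which 14 of 16 were measured. In wild type mice 3 rose and 1 fell, and in Sphk1-/- mice 2 rose and 1 fell. Over all named genes, 21.6% were called in wild type and 3.58% in Sphk1-/- mice, in either direction. Lif, the leukemia inhibitory factor, and Osmr, the oncostatin M receptor, rose in both genotypes. Lif rose by 2.00 in wild type (adjusted p = 8.37e-05) and 1.13 in Sphk1-/- mice (adjusted p = 0.0162). Osmr rose by 2.00 in wild type (adjusted p = 6.89e-05) and 1.00 in Sphk1-/- mice (adjusted p = 0.0267), and neither interaction was called. Lif was lower in SK HO than in WT HO lungs (-0.88, adjusted p = 0.0302). Lifr, the LIF receptor, fell in wild type mice (-0.72, adjusted p = 0.00698), where its difference in Sphk1-/- mice was -0.62 (adjusted p = 0.0573). Cntfr, the receptor chain of ciliary neurotrophic factor, fell in Sphk1-/- mice (-0.98, adjusted p = 0.00739) and had the one called interaction of this list (-0.94, adjusted p = 0.0287).

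In the IL-1 family, 4 of 11 ligand-side genes rose in wild type mice (Il18, Il1a, Il1b and Il1f9) and none was called in Sphk1-/- mice. Il1f9, which encodes IL-36 gamma, an epithelial cytokine, read 6.23, 5.72 and 5.96 in WT HO and 3.79, 3.42 and 3.66 in WT RA lungs. It read 3.77, 5.46 and 4.11 in SK HO and 3.50, 3.55 and 3.46 in SK RA lungs. Like Il6, it was above background on the WT HO arrays and SK HO 2 alone. Il1f9 rose by 2.35 ± 0.34 in wild type mice (adjusted p = 0.00078), with a difference of 0.95 in Sphk1-/- mice (adjusted p = 0.209). It was lower in SK HO than in WT HO lungs (-1.52 ± 0.34, adjusted p = 0.0235). That call was kept without SK HO replicate 2, where the difference was -2.03, and lost on leaving out any of the other 5 arrays compared.

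Il1b and Il1a, the classical inflammatory IL-1 cytokines, had like estimates in both genotypes. Il1b read 6.72, 5.82 and 7.58 in WT HO and 5.36, 5.46 and 5.45 in WT RA lungs. It read 5.94, 6.87 and 6.54 in SK HO and 5.38, 5.30 and 5.01 in SK RA lungs, so that HO mice were above RA mice in both genotypes. The difference was 1.28 ± 0.36 in wild type (adjusted p = 0.0351) and 1.22 ± 0.36 in Sphk1-/- mice (adjusted p = 0.124). The corresponding values for Il1a were 0.85 ± 0.24 (adjusted p = 0.0355) and 0.96 ± 0.24 (adjusted p = 0.0656). The 95% interval of the interaction ran from -1.20 to 1.06 for Il1b and from -0.64 to 0.86 for Il1a, so that neither like nor unlike responses were shown. Each wild type call was kept on leaving out WT HO replicate 2 and lost on leaving out any of the other 5 arrays compared.

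Il33, an alarmin stored in cell nuclei, separated by genotype and not by oxygen, and is named here after its values were seen. It read 7.91, 8.89 and 7.93 in SK HO and 7.63, 7.06 and 7.31 in WT HO lungs. In room air it read 7.82, 8.13 and 8.34 in SK RA and 7.31, 7.57 and 7.00 in WT RA lungs. All 6 Sphk1-/- mice were above all 6 wild type mice, and it was the one such gene of the 78 (0.513% of all transcripts separated by genotype in either direction). Neither comparison was called, with a difference of 0.91 under hyperoxia (adjusted p = 0.0833) and 0.81 in room air (adjusted p = 0.224).

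Among the 9 IL-1 family receptors and binding proteins, the IL-18 receptor chains rose in wild type mice. Il18rap, the accessory chain, read 5.27, 5.24 and 5.52 in WT HO and 3.92, 3.94 and 4.11 in WT RA lungs (difference 1.35 ± 0.26, adjusted p = 0.00491). In SK HO lungs it read 4.35, 5.42 and 4.29, and in SK RA lungs 4.34, 3.90 and 3.87. SK HO 2 was thus within the WT HO range, while SK HO 1 and SK HO 3 were near the SK RA mice. Il18rap was above background on the WT HO arrays and SK HO 2 alone. Il18r1, the ligand-binding chain, averaged 7.92 in WT HO and 7.19 in WT RA lungs (0.72, adjusted p = 0.038), a call lost on leaving out any 1 of the 6 arrays. Il1rl2, the IL-36 receptor, was not called in any of the 5 comparisons and had a wild type difference of -0.31 (adjusted p = 0.308).

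In the IL-17 family, 4 of 11 genes rose and 1 fell in wild type mice. Il17re, the receptor chain for IL-17C, rose in both genotypes. Il17re read 7.10, 7.27 and 7.39 in WT HO and 6.48, 6.46 and 6.53 in WT RA lungs (0.76 ± 0.12, adjusted p = 0.0012). It read 7.07, 7.11 and 7.07 in SK HO and 6.35, 6.46 and 6.58 in SK RA lungs (0.62 ± 0.12, adjusted p = 0.0199). It was the one gene called higher in Sphk1-/- mice, and that call was lost without SK RA replicate 2, SK HO replicate 2 or SK HO replicate 3. Il17c, its epithelial ligand, averaged 4.93 in WT HO and 4.35 in WT RA lungs (0.58, adjusted p = 0.018), with all WT RA arrays under background. That call was lost without WT RA replicate 3, WT HO replicate 1 or WT HO replicate 3.

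Il17ra, the chain shared by the family, read 8.05, 7.95 and 7.97 in WT HO and 6.98, 7.04 and 7.13 in WT RA lungs (0.94, adjusted p = 0.014). It was lost as a call without WT RA replicate 1 or WT HO replicate 1. Il17rd, a chain also known to restrain growth factor signalling, fell in both genotypes. It read 6.18, 6.02 and 5.85 in WT HO and 6.56, 6.54 and 6.67 in WT RA lungs (-0.57, adjusted p = 0.0377), and 5.86, 5.81 and 6.35 in SK HO and 6.56, 6.80 and 6.89 in SK RA lungs (-0.74, adjusted p = 0.0418). The wild type call was kept on leaving out WT HO replicate 1 and lost on leaving out any of the other 5 arrays compared. The Sphk1-/- call was lost without SK RA replicate 2, SK RA replicate 3, SK HO replicate 1 or SK HO replicate 2. Il17rc, the partner of Il17ra, was higher in WT HO lungs (0.62, adjusted p = 0.044), a call lost on leaving out any 1 of the 6 arrays.

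Il4ra, the chain shared by the receptors for IL-4 and IL-13, read 9.91, 10.07 and 9.79 in WT HO and 8.27, 8.31 and 8.66 in WT RA lungs. It read 8.59, 9.63 and 8.61 in SK HO and 8.40, 8.71 and 8.83 in SK RA lungs, so that SK HO 2 lay apart from its group. Il4ra rose by 1.51 ± 0.25 in wild type mice (adjusted p = 0.00201), and its difference in Sphk1-/- mice was 0.29 (adjusted p = 0.706). In SK HO against WT HO it was lower (-0.98 ± 0.25, adjusted p = 0.0465), a call kept on leaving out SK HO replicate 2 and lost on leaving out any of the other 5 arrays compared. The 4 other genes of the IL-4 and IL-13 group were not called in any comparison.

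Il15, which sustains NK cells and memory T cells, was the other gene that fell in wild type mice. It read 4.41, 4.44 and 4.44 in WT HO and 5.21, 4.85 and 5.45 in WT RA lungs (-0.74 ± 0.18, adjusted p = 0.0145), below background on all WT HO arrays. It read 4.80, 4.51 and 5.07 in SK HO and 5.36, 5.55 and 5.42 in SK RA lungs (-0.65, adjusted p = 0.0885). The wild type call was lost without WT RA replicate 1 or WT RA replicate 3. Il12rb2, a chain of the IL-12 receptor, rose in wild type mice (0.70, adjusted p = 0.009) and was above background on the 3 WT HO arrays alone. None of the 11 genes of the IL-10 family and none of the 4 of the common beta chain family was called in any comparison. The IL-10 family differences in wild type mice ran from -0.32 to 0.58.

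**Figure D3:**
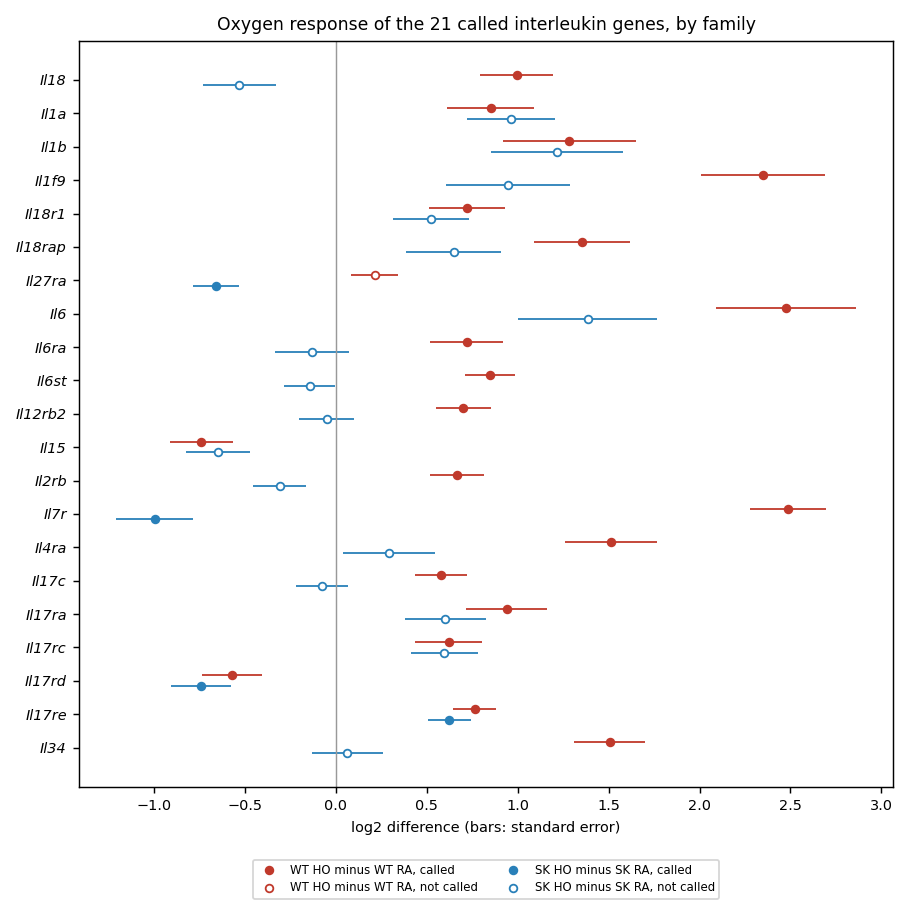
Differences between HO and RA groups (x axis, log2, bars for the standard error) for the 21 interleukin genes called in any of the 5 comparisons, ordered by family, in wild type mice (red) and Sphk1-/- mice (blue). Filled circles are called, 20 in wild type and 4 in Sphk1-/- mice.

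Under hyperoxia, the called differences between genotypes ran 1 way. In SK HO against WT HO, 7 of 78 genes were called and all 7 were lower in SK HO lungs (8.97%, against 5.74% of all transcripts, 2.92% lower and 2.82% higher, and 8.75% of named genes). They were Il7r, Il1f9, Il34, Il18, Il4ra, Il2rb and Il6st. The median difference was -0.14 over the 78 genes and -0.01 over all transcripts, and the groups did not overlap for 21 genes (26.9%, against 23.6%). Adjusting for Y-linked expression ended the calls of Il4ra and Il6st, kept the other 5 and added one of Il18bp. In room air, the median difference between SK RA and WT RA was 0.04, and 12 genes had an unadjusted p under 0.05.

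The mouse SK HO 2 stood apart in several of these genes. In 6 of the 78 genes it was more than 1 log2 unit above both other SK HO mice (Il1r2, Il11, Il1f9, Il18rap, Il4ra and Il6), as were 1.08% of all transcripts. None of the 78 genes was that far above both others of its group on any of the 11 other arrays. Over all transcripts, however, the share was larger on SK RA 1 (4.31%) and SK HO 1 (2.61%) than on SK HO 2. Il1r2, the decoy receptor that binds IL-1 without signalling, read 4.74, 7.62 and 4.34 in SK HO and 4.24, 4.06 and 4.05 in SK RA lungs. Il1r2 in wild type lungs read 5.34, 5.17 and 6.10 in WT HO and 3.97, 4.08 and 4.26 in WT RA. Il11, a gp130 cytokine linked to tissue remodelling, read 3.98, 7.12 and 4.34 in SK HO and 4.47, 4.21 and 4.35 in SK RA lungs, and 4.77, 4.14 and 4.47 in WT HO and 4.26, 3.91 and 4.26 in WT RA lungs. The value of Il11 in SK HO 2 was the highest of the 12 arrays, and the others were 4.77 or less. Il11 was above background on SK HO 2 and WT HO 1 alone. Il11 and Il1r2 are named after their values were seen.

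Without SK HO replicate 2, 11 genes were called lower in SK HO than in WT HO lungs, with Il17ra, Il18rap, Il1r2 and Il6 added. The Il6 difference was then -1.59 (adjusted p = 0.0154), against -1.14 (adjusted p = 0.123) with all mice. The interaction was then called for 10 genes, with Il18rap, Il1f9, Il4ra and Il6ra added. SK HO against SK RA had 1 call, Il7r (-1.16, adjusted p = 0.0319). SK HO 2 was singled out for its high values, so leaving it out lowers the SK HO means of such genes. The added calls follow in part from that choice, so they cannot decide whether these genes differ by genotype. The mean of the neutrophil markers was also highest in this mouse, although Ly6g was not (4.19 in SK HO 2 and 4.40 in SK HO 1). The mean of 7 markers was 7.59 in SK HO 2, 6.43 and 6.24 in the other SK HO mice and 5.35 to 5.77 in SK RA lungs, with 5.99 to 7.04 in WT HO and 5.49 to 6.36 in WT RA lungs, and 6 of the 7 were above background on all arrays. Their part was not tested.

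**Figure D4:**
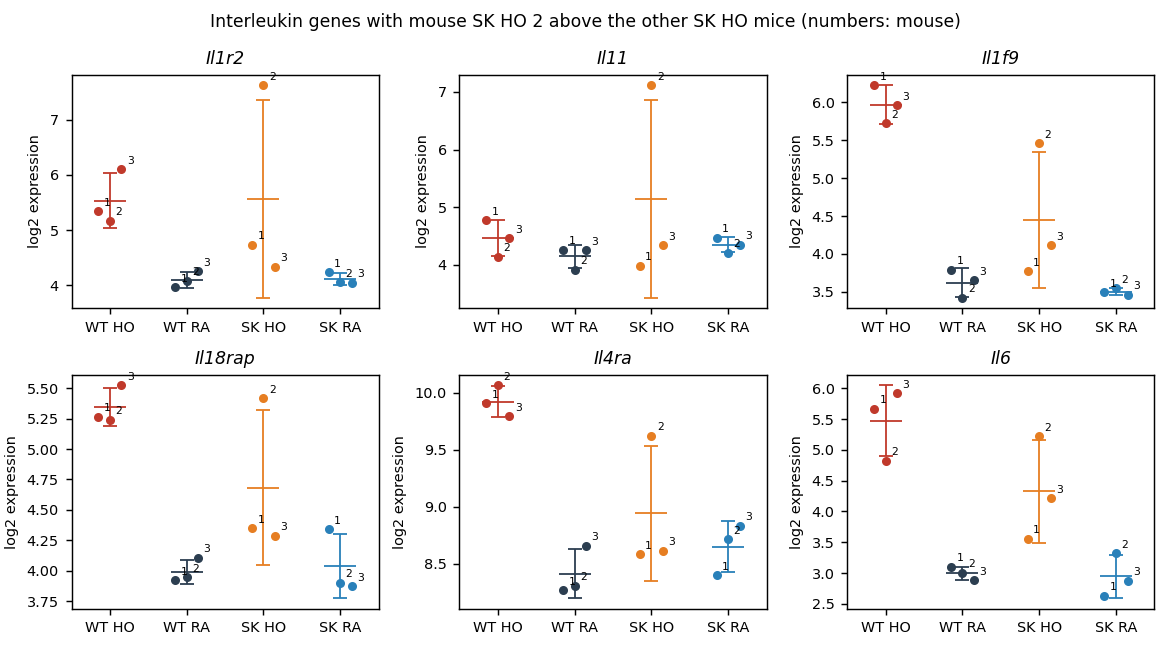
Log2 expression (y axis) of the 6 genes in which SK HO 2 was more than 1 unit above both other SK HO mice, by group (x axis), with the mouse number beside each point and bars for the mean and SD of 3 mice. SK HO 2 reads 7.62 in Il1r2 and 7.12 in Il11, above all other arrays.

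Genes of IL-1 receptor signalling were followed in a list of 25, of which 22 were measured. The list held adaptors, kinases and NF-kB genes, and also Casp1, Sigirr and inhibitors such as Nfkbia. In wild type mice 14 rose and none fell, with a median difference of 0.73, and in Sphk1-/- mice none was called. Among all named genes, 21.6% were called in wild type and 3.58% in Sphk1-/- mice, in either direction. Nfkbia, the inhibitor that NF-kB itself induces, rose by 1.31 ± 0.20 in wild type (adjusted p = 0.000917) and had a difference of 0.23 in Sphk1-/- mice (adjusted p = 0.699). Nfkb2, an NF-kB subunit of the non-canonical pathway, rose by 1.25 in wild type (adjusted p = 0.000623), against a difference of 0.63 in Sphk1-/- mice (adjusted p = 0.0972). Rela, the p65 subunit, rose by 1.20 and Irak2, a receptor-associated kinase, by 0.98. The interaction was called negative for 5 of the 22 genes (Sigirr, Rela, Nfkbia, Nfkbib and Ikbkb). In SK HO against WT HO, 5 of the 22 were lower (Irak2, Irak3, Casp1, Nfkbib and Ikbkg). Of named genes, 6.98% had a called interaction and 8.75% were called in SK HO against WT HO, in either direction.

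**Figure D5:**
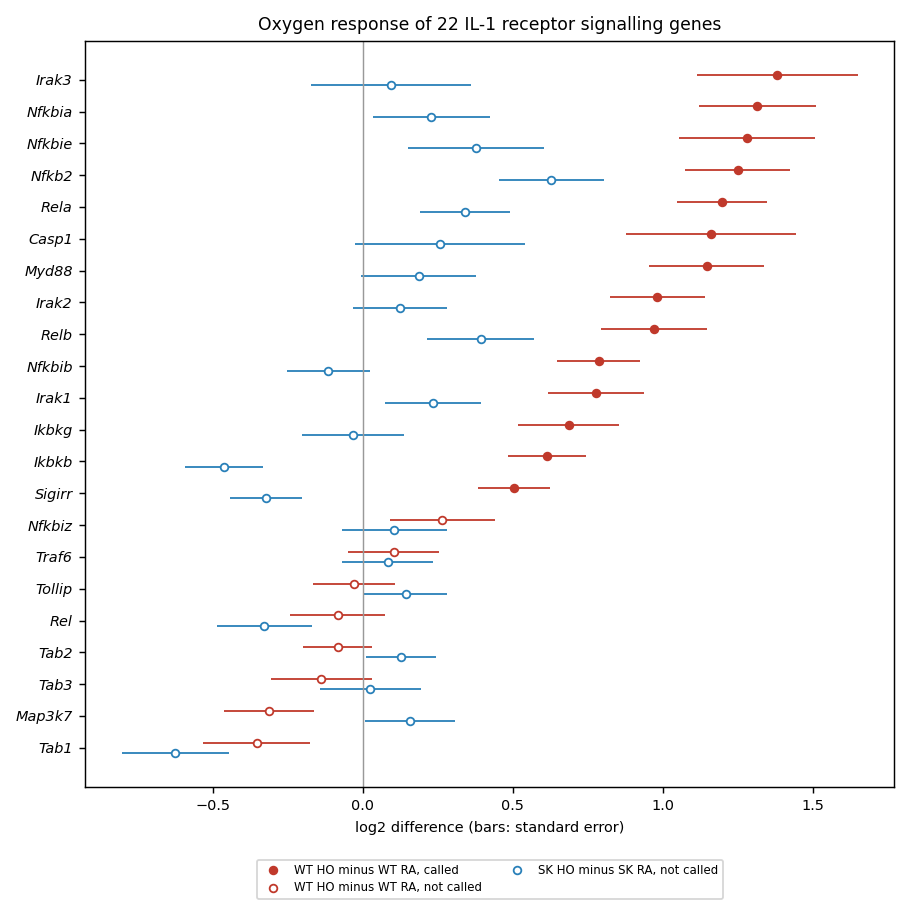
Differences between HO and RA groups (x axis, log2, bars for the standard error) for 22 genes of IL-1 receptor signalling, in wild type mice (red) and Sphk1-/- mice (blue). Filled circles are called, which holds for 14 genes in wild type and none in Sphk1-/- mice.

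Of the JAK, STAT and SOCS genes, 17 of 19 were measured and 5 rose in wild type mice, with none called in Sphk1-/- mice. The shares of named genes called, in either direction, were 21.6% in wild type and 3.58% in Sphk1-/- mice. Stat4, which acts below the IL-12 receptor, rose by 1.06 ± 0.17 in wild type (adjusted p = 0.00152), with a difference of -0.27 in Sphk1-/- mice (adjusted p = 0.565). It had the one called interaction of this list (-1.33, adjusted p = 0.00902). Stat3, the main STAT protein of the IL-6 family, rose by 0.79 and Stat6, that of IL-4 and IL-13, by 0.74 in wild type mice. Socs3 and Socs5, inhibitors of cytokine signalling, rose by 0.98 and 0.75.

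Markers of leukocytes and of other lung cells differed between groups beside the interleukin genes. The mean of 5 alveolar macrophage markers was 7.44 to 7.73 in WT HO and 6.08 to 6.19 in WT RA lungs, and 6.40 to 6.77 in SK HO and 6.28 to 7.14 in SK RA lungs, with 4 above background on all arrays. One of these markers, Fabp4, which adipocytes also express, reached 9.70 in WT HO 2 and 9.59 in SK RA 1, where SK RA 2 and 3 had 4.90 and 5.04. The same 2 arrays had the highest means of adipocyte markers, 6.00 in WT HO 2 and 5.47 in SK RA 1. Among the alveolar macrophage markers, Marco was called higher in both genotypes, by 1.13 in wild type and 1.39 in Sphk1-/- mice. Pparg and Krt79 had called negative interactions. Monocyte and macrophage markers averaged 7.63 to 8.0 in WT HO, 7.10 to 7.46 in WT RA, 7.41 to 7.79 in SK HO and 6.97 to 7.61 in SK RA lungs. The mean of 7 mast cell markers moved the other way. It was 3.79 to 3.83 in WT HO and 4.66 to 4.90 in WT RA lungs. In Sphk1-/- mice it was 4.98 to 5.26 in SK HO and 4.03 to 4.34 in SK RA lungs. Of these 7 markers, 5 fell in wild type and 4 rose in Sphk1-/- mice. Of all transcripts, 6.35% were called lower in wild type and 1.02% higher in Sphk1-/- mice. Only Hdc was above background on all arrays, and Ms4a2 and Fcer1a were on none. The Hdc difference in Sphk1-/- mice was -0.40 (adjusted p = 0.515). In wild type mice 5 of 6 alveolar type II cell markers fell, with means of 10.17 to 10.60 in WT HO and 10.98 to 11.06 in WT RA lungs, against 10.72 to 10.90 in SK HO and 10.91 to 11.29 in SK RA lungs. Of 5 fibroblast markers, 3 fell and 2 rose in wild type mice, and 2 of 5 endothelial and 2 of 5 cardiac muscle markers fell. The part of these cells in the responses of the interleukin genes was not tested.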

How the data were processed

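The arrays were Affymetrix MoGene 2.0 ST arrays, and total RNA of each mouse was hybridized to its own array. The deposited values are log2 expression that the authors computed in Partek Genomics Suite 6.6 with background correction, quantile normalization and probe set summarization by RMA. A genome build was not given in the sources used here. RMA is relative to the array and compresses low values, so differences near background understate changes. Precision is limited by the number of arrays.

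Gene names came from GEO's platform annotation. Of 41345 transcripts, 25341 were listed there, 23521 with 1 symbol and 1820 with several. One further transcript, shared by Nup62 and genes named Il4i1 and Il4i1b, was left out. All 78 symbols matched RefSeq. The members and gene lists were chosen with earlier results of these data known.

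Group means over all 12 arrays were fitted with limma 3.58.1 in R 4.3.3 (lmFit and eBayes, with 3.247 prior degrees of freedom). P-values were adjusted by Benjamini-Hochberg across the 41345 transcripts. The methods' two-way analysis of variance was run as an alternative (ordinary residual variance). The script was tested on simulated data. Genes named were the members that the study names (Il6, Il6ra and Il6st) and the up to 10 called highest and lowest in each comparison. The up to 4 lowest adjusted p in each family or signalling list were also named. Il1rl1, which the study names too, and Il2rg, the common gamma chain, were not among the members, so neither was examined. Same-numbered SK HO and SK RA mice deviated together (r of deviations 0.398, 0.193 and 0.210), with no source for a shared litter, and the replicate block was run as an alternative. The r was lower for WT HO and WT RA mice (0.121, -0.01 and 0.061). It was 0.2505, 0.0475 and 0.1368 for SK RA and WT RA mice, and 0.0643, 0.0552 and 0.0744 for SK HO and WT HO mice. No arrays were identical. Nothing in the sources used here says whether pups of a group were littermates, so p-values measure the spread between these mice. Other alternatives were a trended robust prior, a filter on dim transcripts, 1 transcript per gene, other scalings, only the compared groups, a Y-linked covariate and leaving out arrays.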

Additional observations from a re-analysis of the deposited data

Results flagged for a closer look

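The response to oxygen differed between the genotypes by limma's interaction test for 6 interleukin genes, and in each the difference of Sphk1-/- from wild type was negative. It was -3.48 for Il7r, -1.53 for Il18, -1.44 for Il34, -0.99 for Il6st, -0.97 for Il2rb and -0.87 for Il27ra on the log2 scale. The interactions of Il7r, Il18 and Il34 were called under all alternative settings.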

How the results depend on the processing

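Calls were made again under 11 other settings (10 for the interaction) and with each array left out. No called gene of the 78 changed direction. Of the uncalled, Il11 turned without SK HO replicate 2, to -0.30 in SK HO against WT HO (0.68 with all mice) and -0.19 in SK HO against SK RA (0.80). Il11 was above background on WT HO 1 and SK HO 2 alone, so these turned differences lie mostly between undetected values. Il1r2 had -1.0 in SK HO against WT HO without SK HO replicate 2 (limma adjusted p = 0.0422), and 0.03 with all. That mouse was singled out for high values in Il1r2 and other genes. For WT HO against WT RA, 20 calls became 15 to 26 under the other settings and 12 to 17 with 1 array left out, and 11 of the 20 genes were called throughout. For SK HO against SK RA, 4 calls became 2 with ordinary residual variance or the Y-linked covariate, 8 with 1 transcript per named gene, and 0 with arrays centred on their medians, only the compared groups, or SK RA and SK HO replicates 1 both left out. With 1 array left out there were 0 to 3. The interaction had 6 calls, and 4 to 10 with 1 array left out. SK RA against WT RA kept 1 call, Il7r. For SK HO against WT HO, 7 calls became 12 with 1 transcript per named gene, 2 with only the compared groups and 4 without both replicates 1, and 4 to 11 with 1 array left out. The causes were not tested. With the replicate block the counts were 19, 4, 6, 1 and 7 in the order above, and the one call it ended was Il1a in wild type mice. Ordinary residual variance and the Y-linked covariate each ended the wild type calls of Il17rc, Il18r1, Il1a, Il1b and Il6ra. In SK HO against WT HO, ordinary variance ended the calls of Il1f9 and Il4ra, and the covariate those of Il4ra and Il6st. Median centring ended those of Il17rc, Il17rd, Il18r1 and Il6ra in wild type mice. Leaving out both replicates 1 ended the interactions of Il27ra and Il2rb. With 3 mice per group and many ligands near background, a missed call does not show equal levels.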
